A study of Saccharomyces cerevisiae with 6 samples.

Results

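The genes of pyrimidine nucleotide synthesis and uracil uptake were compared between the nab2-1 mutant and the wild type of budding yeast. The set held 9 named genes: URA1, URA3, URA4, URA5, URA6, URA7, URA10, the uracil permease gene FUR4 and the activator gene PPR1. All 9 were among the 5449 genes tested, each with 1 probe set, and none had a group mean under the level of probe sets without target RNA (4.27 on the log2 scale). To them were added the URA3 control probe sets of the array, which stand for the 5' end, the middle and the 3' end of that gene.

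RNA had been hybridised to Affymetrix yeast arrays, with 3 arrays of nab2-1 and 3 of the wild type. Per the labels the nab2-1 strain was W303-1A with its chromosomal NAB2 gene replaced by HIS3, with the nab2-1 allele supplied from a LEU2 plasmid of the centromeric kind. The wild type was W303-1A without these changes. Both had been grown exponentially in rich YPD medium at 30 °C. The Nab2 protein binds poly(A) tails in the nucleus and is needed for mRNA export. The labels name no change at URA3 in either strain, though W303 strains are known to carry a ura3 allele that makes them need uracil. Whether each sample was a culture of its own is not stated either, so the p-values rest on a spread between samples that may be technical.

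As background, UMP is built from glutamine, bicarbonate and aspartate in a chain of enzymatic steps and is then turned into UTP and CTP. Yeast also takes up uracil, uridine and cytosine from the medium and feeds them into UMP. Ppr1 is a zinc cluster transcription factor that senses pathway intermediates and activates several URA genes when pyrimidines run short, while the permease Fur4 is removed from the plasma membrane and degraded when uracil is plentiful.

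Each value below is a log2 signal, and each difference is the nab2-1 mean minus the wild type mean, ± SE (n = 3 arrays in each group). Adjusted p-values are from limma over all 5449 genes after Benjamini-Hochberg adjustment, with a threshold of 0.05. Within a group the SD of a gene had a median of 0.078 among nab2-1 arrays and 0.065 among wild type arrays, and the number of arrays limits the precision. Genes of chromosomes I, XI and XVI stood apart as a group, with median differences of 0.73, 0.77 and 0.75. On the other 13 chromosomes the median was -0.14 to -0.08. URA1 and URA6 lie on chromosome XI and the other 7 members on chromosomes II, V, XII and XIII. Values are therefore also given relative to the median of a gene's own chromosome, where these differ in a way that matters.

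Mating type markers were read on the same arrays, since W303-1A is known as a MATa strain. The 4 MATalpha-specific genes had nab2-1 means from 12.74 to 14.13 and wild type means from 12.26 to 13.91, far above the 4.27 of probe sets without target. The 7 MATa-specific genes, with nab2-1 means from 7.02 to 10.05 and wild type means from 6.50 to 9.08, also lay above it. By their mean over the 6 arrays, the MATalpha-specific genes were brighter than 89.8% to 98.6% of all tested genes. The MATa-specific genes were brighter than 5.1% to 31.0%. Probe sets differ in brightness, so this order is rough. Signals this high for MATalpha-specific genes in both groups are at odds with a MATa strain. The mating type of the strains was not tested. All 7 MATa-specific genes rose in nab2-1, and of the 4 MATalpha-specific genes 3 rose and 1 fell. Among all tested genes 30.2% rose and 37.2% fell. Of the MATalpha-specific genes that rose, those on chromosomes XVI and XI were at -0.53 and -0.34 relative to their chromosome medians. The other was at 0.59 on that scale, and the MATa-specific gene on chromosome XI at 0.77. The MATa list averaged 8.86 to 9.05 on the nab2-1 arrays and 7.60 to 7.69 on the wild type arrays, and the MATalpha list 13.15 to 13.22 on the nab2-1 arrays and 12.92 to 12.96 on the wild type arrays. The part of mating type in the differences below was not tested. The 3 probe sets for 18S ribosomal RNA, which for the most part lacks a poly(A) tail, were higher in nab2-1 on every array, by 2.35 ± 0.45 at the 3' end (adjusted p = 0.0051), 1.34 ± 0.31 at the 5' end (adjusted p = 0.013) and 2.91 ± 0.54 in the middle (adjusted p = 0.0045), in the limma fit over all probe sets. The wild type arrays varied most, with SDs of 0.72 to 1.25, against 0.045 to 0.16 in nab2-1. The part of this RNA in the differences below was not tested.

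Of the 9 members 5 rose, 1 fell and 3 did not pass the test. The genes that rose were URA1, URA4, URA5, URA6 and URA7, and the gene that fell was FUR4. URA10, PPR1 and URA3, the last read by its gene probe set, did not pass. The 5' and middle controls of URA3, which are outside this count, fell 15.7-fold and 11.7-fold in nab2-1. The 3' control of URA3 did not pass. Over all tested genes 67.4% passed, 30.2% higher and 37.2% lower, so the share of members that passed, 66.7%, lay near that of all genes. Outside chromosome XI, 3 of 7 members rose and 1 fell, where 19.8% of the genes outside chromosomes I, XI and XVI rose and 43.2% fell. The median difference of the members was 0.22, against -0.05 over all genes. For the 7 members outside chromosome XI it was -0.06, and for all 9 relative to chromosome medians 0.07. After scaling to the array's spiked control RNAs, which put the median of all genes at 0.22, the genes that had risen stood at 1.92 (URA1), 0.66 (URA4), 0.50 (URA5), 0.71 (URA6) and 0.63 (URA7), and FUR4 at -0.92. In samples of whole cultures, a change in every cell and a change in some of the cells cannot be told apart.

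**Figure D1:**
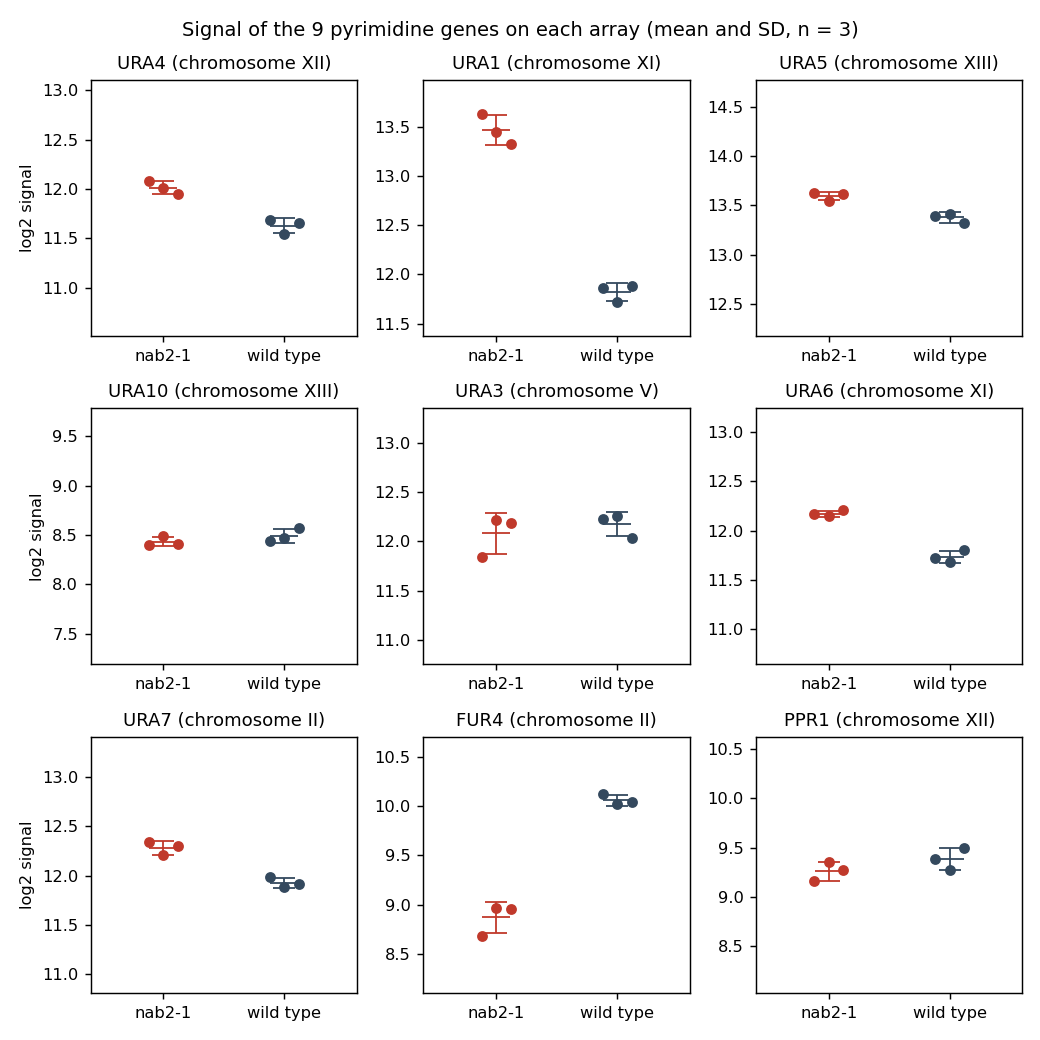
Log2 signal of the 9 genes on each array, with nab2-1 (red) left of the wild type (blue-grey) in each panel. Points are arrays, bars the mean and SD of 3 arrays, and every panel spans the same height on the log2 axis. The nab2-1 points of URA1, URA4, URA5, URA6 and URA7 lie above all wild type points, and those of FUR4 lie below. The groups overlap for URA10, PPR1 and the gene probe set of URA3.

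The enzymes that make UMP were taken in the order of their steps. URA4 encodes dihydroorotase, which closes the ring. It had 12.08, 12.01 and 11.95 on the nab2-1 arrays and 11.69, 11.54 and 11.66 on the wild type arrays. The groups did not overlap, and the rise of 0.38 ± 0.06, or 1.31-fold, passed the test (adjusted p = 0.00093). Relative to the median of chromosome XII the difference was 0.46 ± 0.06.

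URA1 encodes dihydroorotate dehydrogenase, which in this yeast is a cytosolic enzyme. It had 13.63, 13.44 and 13.32 on the nab2-1 arrays, against 11.86, 11.72 and 11.89 on the wild type arrays. Every nab2-1 value was thus well above every wild type value, by more than the range within either group (0.31 among nab2-1 and 0.17 among wild type arrays). The rise of 1.64 ± 0.09, or 3.12-fold, had an adjusted p of 4.7e-06 in limma and was the largest difference in either direction among the 9 members. In the order of all tested genes it stood 77th from the top. On its chromosome 89.8% of the tested genes rose. Relative to the median of chromosome XI, URA1 was higher by 0.89 ± 0.09 (adjusted p = 0.00012), and from the lowest difference on that chromosome it ranked 280 of 293.

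URA5 and URA10 encode the major and the minor orotate phosphoribosyltransferase, which catalyse the same step from orotate to OMP. URA5 had 13.63, 13.55 and 13.61 in nab2-1 and 13.40, 13.42 and 13.32 in the wild type. The groups did not overlap, and the rise was 0.22 ± 0.05 or 1.17-fold (adjusted p = 0.0058). Relative to the median of chromosome XIII it was 0.35 ± 0.05. URA10 had 8.40, 8.48 and 8.40 in nab2-1 and 8.44, 8.47 and 8.57 in the wild type. Its groups overlapped and its difference of -0.06 ± 0.05 did not pass (adjusted p = 0.34), with a 95% interval from -0.19 to 0.07 that leaves out a change as large as the one of URA5. Compared within arrays, the URA5 to URA10 log2 ratio was higher in nab2-1 by 0.28, in every nab2-1 array against every wild type array. The exact two-sided permutation p was 0.10, the smallest that 3 against 3 arrays allow. It was also 0.10 after adjustment over the 3 gene pairs compared in this way, which were chosen after the values had been seen.

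URA3 encodes OMP decarboxylase, the last step to UMP. Its gene probe set had 11.84, 12.22 and 12.18 on the nab2-1 arrays and 12.23, 12.26 and 12.04 on the wild type arrays. The groups overlapped, and nab2-1 replicate 1 was the lowest of the 6. The difference of -0.10 ± 0.11 did not pass (adjusted p = 0.47, 95% interval from -0.36 to 0.16), and without nab2-1 replicate 1 it was 0.02.

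The control probe sets for URA3 gave another picture. The 5' control had 8.86, 8.84 and 9.15 on the nab2-1 arrays, against 12.97, 12.90 and 12.90 on the wild type arrays. That of the middle had 8.65, 8.69 and 8.81 in nab2-1 and 12.48, 12.16 and 12.15 in the wild type. Both fell far outside the spread of the replicates, though the remaining signal was above the 4.27 of probe sets without target. In the limma fit over all 10928 probe sets, where 34.1% passed and 19.0% were lower, the 5' control fell by 3.97 ± 0.09, or 15.7-fold (adjusted p = 1.2e-06), and the middle control fell by 3.55 ± 0.10, or 11.7-fold (adjusted p = 1.9e-06). The 3' control had 12.48, 12.68 and 12.53 in nab2-1 and 12.41, 12.47 and 12.28 in the wild type. Its nab2-1 values all lay above the wild type values, but the difference of 0.17 ± 0.08 did not pass (adjusted p = 0.15).

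The ratio between the URA3 controls was then compared between the groups. The 5' minus 3' log2 ratio was -3.62, -3.84 and -3.38 on the nab2-1 arrays, against 0.56, 0.42 and 0.61 on the wild type arrays. This was a difference of -4.15, with an exact two-sided permutation p of 0.10, the smallest that the design allows. The middle minus 3' ratio differed by -3.72. The array carries such controls for 7 other yeast genes, ACT1, EAF5, RIP1, SPT15, SRB4, TDH1 and WBP1, which bear on the quality of the RNA and the labelled target. Their 5' minus 3' ratios differed between nab2-1 and the wild type by only -0.25 to -0.02, and their middle minus 3' ratios by -0.55 to 0.08. The sources used here do not give the place of the URA3 gene probe set along the gene.

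**Figure D2:**
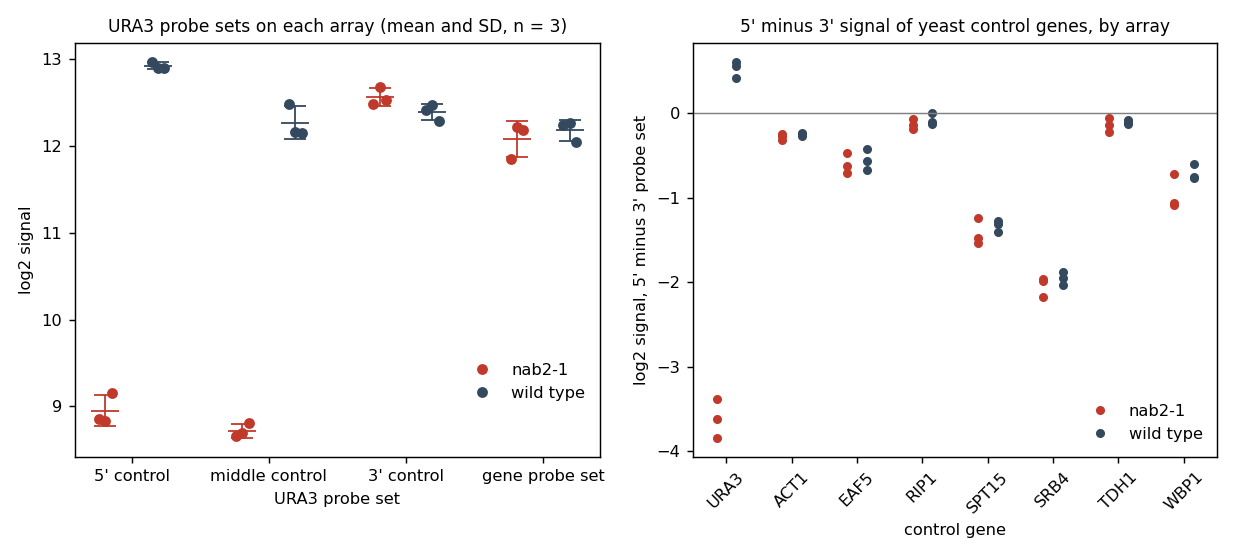
Left, log2 signal of the 3 URA3 control probe sets and the URA3 gene probe set on each array, with nab2-1 (red) left of the wild type (blue-grey) and bars for the mean and SD of 3 arrays. Right, the 5' minus 3' log2 signal of URA3 and of 7 other yeast control genes on each array. In nab2-1 the 5' and middle controls of URA3 lie near 9 while the 3' control and the gene probe set lie near 12, and of the 8 control genes URA3 shows by far the widest gap between the groups.

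The tested genes on either side of URA3 on chromosome V showed no such gap. GEA2, next to it on one side, differed by -0.10 ± 0.07 (adjusted p = 0.21), and YEL023C beyond it by 0.11 ± 0.08 (adjusted p = 0.22). On the other side TIM9 differed by -0.12 ± 0.05 (adjusted p = 0.052). MMS21, beyond TIM9, fell by 0.85 ± 0.07 (adjusted p = 2.3e-05), at 5.90, 6.06 and 6.01 in nab2-1 and 6.76, 6.82 and 6.93 in the wild type. Except for MMS21 these neighbours were near the chromosome V median of -0.12 or above it.

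The next steps turn UMP into UTP and CTP. URA6 encodes uridylate kinase, which phosphorylates UMP, and lies on chromosome XI like URA1. It had 12.16, 12.15 and 12.21 in nab2-1 and 11.72, 11.68 and 11.80 in the wild type. The groups did not overlap, and the rise was 0.44 ± 0.05, or 1.36-fold (adjusted p = 0.00017). This was less than the difference of most genes on its chromosome, as URA6 ranked 59 of 293 from the lowest difference on chromosome XI. Relative to the chromosome median it was lower, by -0.31 ± 0.05 (adjusted p = 0.0013). URA1 and URA6 therefore moved apart although they share a chromosome. Their log2 ratio was higher by 1.20 in nab2-1, with no overlap between the groups (exact two-sided permutation p = 0.10, the smallest possible). The pair was chosen after the values had been seen, so this test is no independent evidence.

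URA7 encodes the major CTP synthetase, which makes CTP from UTP. Its signal was 12.34, 12.21 and 12.30 in nab2-1, against 11.98, 11.88 and 11.92 in the wild type. All nab2-1 values were above all wild type values, and the rise was 0.35 ± 0.06, or 1.28-fold (adjusted p = 0.00089). Its paralogue URA8, no member of the set, encodes the minor CTP synthetase and went the other way. URA8 had 10.44, 10.58 and 10.54 in nab2-1 and 10.73, 10.78 and 10.71 in the wild type, a fall of 0.22 ± 0.05 (adjusted p = 0.0086). The log2 ratio of URA7 to URA8 was higher by 0.57 in nab2-1 (exact two-sided permutation p = 0.10, the smallest possible). This pair too was chosen after the values had been seen. Relative to the median of chromosome X, however, URA8 was at -0.07 (adjusted p = 0.29), and after scaling to the spiked controls at 0.057 (adjusted p = 0.77), so the call for a fall was lost, while URA7 was at 0.47 relative to chromosome II.

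**Figure D3:**
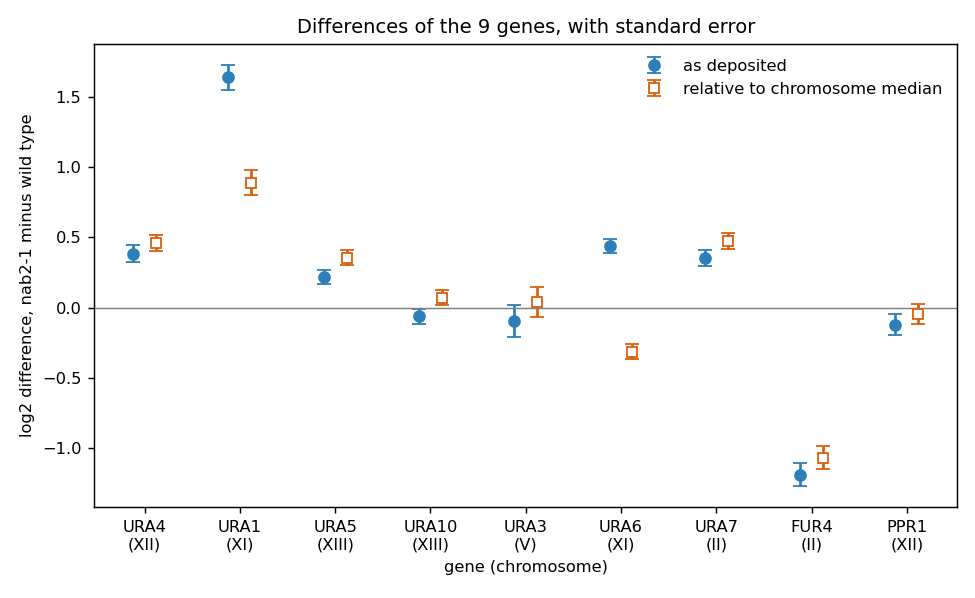
Log2 difference, nab2-1 minus wild type, of the 9 genes with its SE, as deposited (filled circles) and relative to the median of the gene's own chromosome (open squares), with the chromosome in parentheses. URA1 stands at 1.64 as deposited and 0.89 relative to its chromosome, and URA6 at 0.44 and -0.31, while both values lie close together for the other genes.

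FUR4 encodes the uracil permease of the plasma membrane. It had 8.68, 8.97 and 8.95 on the nab2-1 arrays and 10.12, 10.01 and 10.04 on the wild type arrays. Every nab2-1 value was lower than every wild type value by more than 1 log2 unit, and the spread in nab2-1 came mainly from replicate 1. FUR4 fell by 1.19 ± 0.08, or 2.28-fold (adjusted p = 1.5e-05), and stood 140th from the bottom of all tested genes. On chromosome II it had the 13th lowest difference of 387 genes. Its value relative to the median of that chromosome was -1.07 ± 0.08.

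PPR1 encodes the activator. It had 9.16, 9.35 and 9.28 in nab2-1 and 9.39, 9.28 and 9.49 in the wild type. The groups overlapped, and the difference of -0.12 ± 0.07 did not pass (adjusted p = 0.18, 95% interval from -0.30 to 0.05). URA1, URA3, URA4 and URA10 are known as targets of Ppr1. Of these URA1 and URA4 rose, and URA10 and the gene probe set of URA3 did not pass. The 5' and middle controls of URA3 fell, and URA1 was at 0.89 relative to the median of chromosome XI. Among the members not known as targets of Ppr1, URA5, URA6 and URA7 rose and FUR4 fell. The part of Ppr1 in these differences was not tested.

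The profiles of URA1 and FUR4 over the 6 arrays were compared with those of all tested genes, as the distance between log2 signals centred on each gene's own mean. The nearest genes to URA1 were BLI1 (distance 0.16), MUK1 (0.21) and MAL31 (0.22), which rose by 1.54, 1.63 and 1.78. BLI1 lies on chromosome XI, MUK1 on chromosome XVI and MAL31 on chromosome II. Nearest to FUR4 were YDL218W (0.12), ECM12 (0.16) and PEX31 (0.18), with differences of -1.18, -1.28 and -1.27. The distance takes in the gap between the groups, so like differences follow from how these genes were picked.

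A wider list of 19 other genes of pyrimidine synthesis, uptake, salvage and pyrimidine nucleotide metabolism was set beside the members. Of these 3 rose, 9 fell and 7 did not pass, with a median difference of -0.16. The share that passed, 63.2%, was near the 67.4% of all genes, of which 30.2% were higher and 37.2% lower. After scaling to the spiked controls 5 of the list were higher and 3 lower. URA2, which encodes the large enzyme of the first reactions of the pathway, rose by 0.33 ± 0.05 (adjusted p = 0.00099). It had 13.45, 13.36 and 13.34 in nab2-1 and 13.04, 13.11 and 13.02 in the wild type, with no overlap. For the next count URA3 was read by its gene probe set, though its 5' and middle controls fell. With URA2 included, 4 of the 6 genes of UMP synthesis rose and none fell. The same count was found relative to chromosome medians, where 30.1% of all genes were higher and 31.5% lower. It was also found after scaling to the spiked controls, where 39.1% were higher and 11.4% lower.

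Of the other 5 uptake genes, 3 fell like FUR4. FUI1, the uridine permease gene, had 11.32, 11.35 and 11.38 in nab2-1 against 12.13, 12.05 and 12.04 in the wild type, and fell by 0.72 ± 0.05 (adjusted p = 1.2e-05). FCY2, the purine and cytosine permease gene, had 12.26, 12.20 and 12.08 in nab2-1 against 12.99, 12.97 and 12.94 in the wild type, and fell by 0.78 ± 0.06 (adjusted p = 2.0e-05). For these genes the 2 groups were far apart compared with their own spread. FCY21, a homologue of FCY2, had 7.95, 8.08 and 7.97 in nab2-1 against 9.34, 9.19 and 9.24 in the wild type, and fell by 1.26 ± 0.06 (adjusted p = 3.3e-06). Whether the probes tell FCY21 from its near homologues is not stated. Among all genes 37.2% fell, and among those outside chromosomes I, XI and XVI 43.2% fell. Of the 6 uptake genes, FUR4 included, 4 fell and none rose. After scaling to the spiked controls 4 were lower, where 11.4% of all genes were. Relative to chromosome medians 5 were lower, where 31.5% of all genes were, since FUN26 on chromosome I was then at -0.67. As deposited FUN26 was at 0.06 (limma adjusted p = 0.56). It encodes a nucleoside transporter, and whether this serves uptake from the medium was not checked. The sorting of the list into roles was made after the values had been seen.

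The salvage genes were mixed. FUR1, which encodes uracil phosphoribosyltransferase and so turns uracil into UMP, fell by 0.18 ± 0.05 (adjusted p = 0.020). Relative to the median of chromosome VIII it was at -0.07 (adjusted p = 0.30), and after scaling to the spiked controls at 0.094 (adjusted p = 0.61). The call for FUR1 was also lost under quantile normalization (-0.15, adjusted p = 0.053) and when nab2-1 replicate 2 (-0.14, adjusted p = 0.063), wild type replicate 1 (-0.17, adjusted p = 0.064) or wild type replicate 3 (-0.18, adjusted p = 0.053) was left out. PHM8, a nucleotide phosphatase gene, had 11.54, 11.57 and 11.52 in nab2-1 and 10.28, 10.41 and 10.29 in the wild type, and rose by 1.22 ± 0.05, or 2.33-fold (adjusted p = 2.4e-06). In all, 2 of the 7 salvage and breakdown genes rose and 3 fell. Of the 4 genes of thymidine nucleotides 2 fell and none rose. Among all genes 30.2% were higher and 37.2% lower. Outside chromosomes I, XI and XVI, where the 4 thymidine genes lie, 19.8% were higher and 43.2% lower. After scaling to the spiked controls, 3 of the salvage genes were higher and none lower, and none of the thymidine genes passed, beside 39.1% higher and 11.4% lower among all genes.

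**Figure D4:**
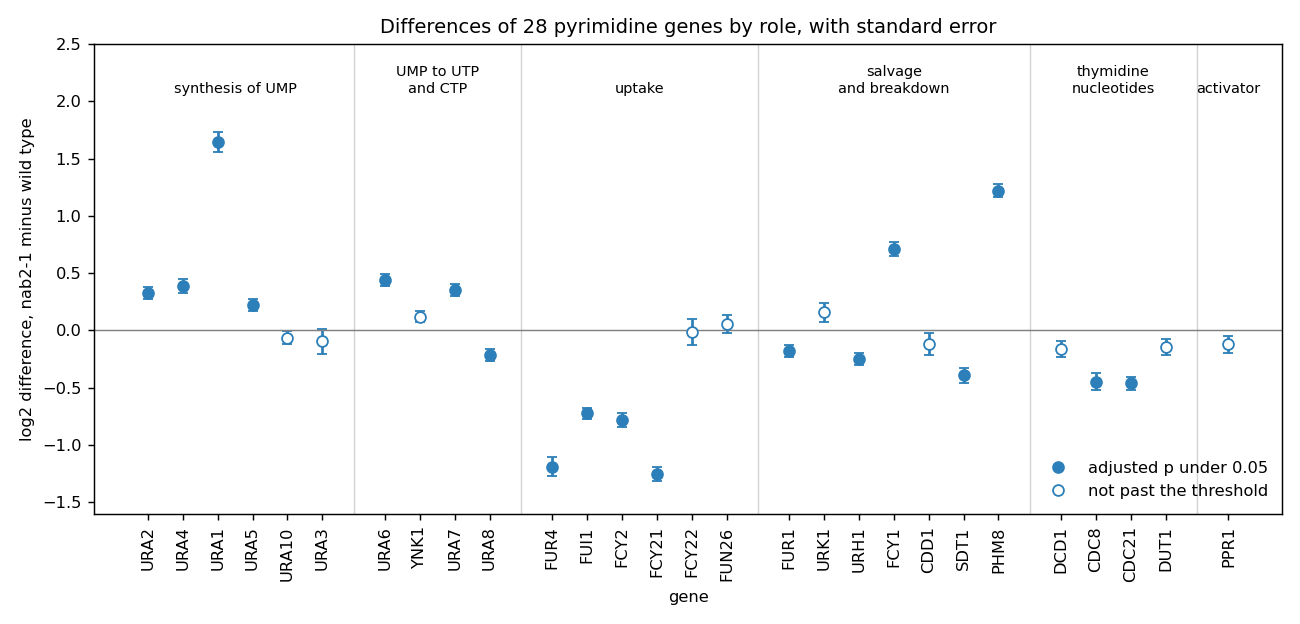
Log2 difference, nab2-1 minus wild type, with its SE, of the 9 members and the 19 genes of the wider list, sorted by role. Filled points passed the adjusted threshold. The synthesis genes URA2, URA4, URA1 and URA5 lie above 0. URA3, read by its gene probe set, lies at -0.10 and URA10 at -0.06. The uptake genes FUR4, FUI1, FCY2 and FCY21 lie between -1.26 and -0.72, and the rest near 0, up to 0.06 for FUN26. The other roles hold genes on both sides or below 0.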

How the data were processed

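The authors deposited 1 log2 value for each of 10928 probe sets on each of 6 arrays. Per the submitters' processing notes GCOS, RMA and limma were used, in an order and in versions that are not stated. Per the labels, biotin-labelled cRNA came from 1 µg of total RNA. The log2 values were used as deposited. Probe sets were named from the platform annotation, with current symbols from RefSeq's genes of assembly S288C. Of them 5498 had 1 Saccharomyces cerevisiae gene, 1 had several, 1746 belonged to the other yeast, 213 were controls or reporters and 3470 were unnamed. The probe set with the highest mean stood for a gene. The 95th percentile of the other-yeast probe sets gave the level without target.

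The two-sided test was that of limma 3.58.1 (lmFit, eBayes), run in R 4.3.3. The URA3 controls were fitted with all probe sets. For chromosome medians, each array's median deviation over a chromosome's genes was subtracted. The fit was tested on simulated data. The members, lists and alternatives were chosen with earlier results of these data known. Named genes were the members, URA2, URA8, FUR1, the 4 largest called changes of the wider list, URA3's neighbours and the nearest profiles. FCY1, FUN26 and YNK1 were added after their values were seen. Replicate numbers are not stated to mark a shared batch, so the samples were not paired in the main fit. Same-numbered samples correlated at -0.19, 0.19 and -0.14. The correlation was 0.27 for nab2-1 replicate 1 with wild type replicate 3, and 0.22 for nab2-1 replicate 3 with wild type replicate 1. With 3 arrays in a group, such values cannot settle whether samples were paired. Gene sequences were not analysed here. Figures used matplotlib 3.10.9.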

Additional observations from a re-analysis of the deposited data

How the results depend on the processing

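Among 161 values of the 9 members under the alternatives, 154 kept their direction and their side of the threshold. The exceptions were URA6 relative to chromosome medians and the members that had not passed. Some alternatives could not change a member's direction, as they left its difference the same. These were trend and robust variance, the replicate block, a threshold of 0.01, the mean of all probe sets and leaving out dim genes. Under them only the side of the threshold could change. Relative to chromosome medians URA6 was at -0.31, URA3 at 0.039 and URA10 at 0.072, and 2 members, URA6 and FUR4, were then called lower, while outside the members YNK1 was at -0.63, FCY1 at -0.039, FUN26 at -0.67, GEA2 at 0.034 and TIM9 at 0.018. After scaling to 36 probe sets of spiked control RNA, whose amount per sample is not stated, all genes had a median of 0.22, the variance estimate was the same for all genes (SE 0.15), 2133 genes were higher and 622 lower, and the wider list had 5 higher and 3 lower. URA3 was then at 0.18, URA10 at 0.21, PPR1 at 0.15, URA8 at 0.057, FUR1 at 0.094, GEA2 at 0.17 and TIM9 at 0.16. The 3' control of URA3 passed under that scaling (0.45, adjusted p = 0.023) and with trend and robust variance (0.17, adjusted p = 0.049). The cause of these changes was not tested.

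Leaving out 1 array at a time gave -0.17 to 0.02 for URA3, 1.56 to 1.71 for URA1, -1.24 to -1.10 for FUR4, -4.07 to -3.91 for the 5' control and -4.26 to -4.03 for its ratio to the 3' control. The range was -0.018 to 0.13 for FUN26. With the replicate number as a block, 5 members were called higher and 1 lower, and 3514 genes passed in place of 3672. The samples numbered 2 correlated best with each other, and those numbered 1 and 3 did not.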

Other observations

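Of the wider list, 3 genes lie on the chromosomes whose genes were higher almost throughout, and they are named here after their values were seen. YNK1, the nucleoside diphosphate kinase gene on chromosome XI, had 12.25, 12.23 and 12.17 in nab2-1 and 12.07, 12.08 and 12.14 in the wild type, a difference of 0.12 ± 0.05 (adjusted p = 0.059). It passed as higher under 7 alternatives, with adjusted p from 0.016 to 0.048, and was at -0.63 relative to the chromosome median (adjusted p = 4.0e-05). FUN26, a nucleoside transporter gene on chromosome I, differed by 0.06 ± 0.08 (adjusted p = 0.56). Both were thus well under the medians of their chromosomes, 0.77 and 0.73. FCY1, the cytosine deaminase gene on chromosome XVI, rose by 0.71 ± 0.06 (adjusted p = 3.9e-05), close to the chromosome median of 0.75.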
